A study of Mus musculus with 6 samples.

Results

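Heat shock proteins, the J-domain co-chaperones that work with them and the factors that control them were compared in gastrocnemius muscle of Nogo+/+ (wild-type) and Nogo-/- (Nogo KO) mice. The members were all mouse protein-coding genes whose symbol starts with Hsp or Dnaj, with the exception of the matrix proteoglycan gene Hspg2, together with Hsf1, Hsf2, Hsf4, Bag3, Stip1, Ahsa1 and Chordc1. The annotation held 81 such genes, and 72 of them were among the 12353 genes of the deposited expression table, which keeps genes that reached 1 FPKM (fragments per kilobase of transcript, scaled to the mapped fragments of the library) in some library. Of the other 9 genes (Dnajb3, Dnajb7, Dnajb8, Dnajb13, Dnajc5b, Dnajc5g, Dnajc6, Dnajc22 and Hspb9) no value was analysed here. Poly(A) RNA was sequenced from 3 mice of each genotype, 6 libraries in all, called samples 1, 2 and 3 (Nogo+/+) and samples 4, 5 and 6 (Nogo-/-). The Nogo-/- mice lack the gene Rtn4, which encodes the reticulon Nogo, in the whole animal, so that an effect arising within the muscle fiber cannot be told apart from an effect arising elsewhere in the mouse. No treatment was given, and the age, sex and strain of these 6 mice were not given in the sources used here.

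Heat shock proteins are molecular chaperones, which hold unfolded proteins in solution, refold them or pass them on for breakdown. HSP70 proteins bind and release their clients in a cycle driven by ATP; J-domain proteins (the DNAJ families A, B and C) bring clients to HSP70 and trigger ATP hydrolysis, and HSP110 proteins, BAG proteins and other exchange factors reset the cycle. HSP90 proteins act later, on nearly folded clients, and small heat shock proteins hold clients without ATP. Each compartment has its own set. Transcription of the cytosolic set is raised by heat shock factor 1 when proteins unfold, and transcription of the endoplasmic reticulum (ER) set is raised by the unfolded protein response. Skeletal muscle, which bears load and heat, carries large amounts of small heat shock proteins at the Z-disc.

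Rtn4 was at 414, 429 and 425 FPKM in the Nogo+/+ muscles and at 0.423, 0.312 and 0.368 FPKM in the Nogo-/- muscles, so the genotype labels matched the targeted gene in each library. Between 13500000 and 14400000 fragments lay behind each library, as judged from the smallest steps of the FPKM values. All 10 fiber markers looked up were listed, with summed levels of 36879 to 37726 FPKM in Nogo+/+ and 34950 to 37367 FPKM in Nogo-/- muscles, and none of them passed the test. Of 6 endothelial markers, 5 fell (Kdr, Emcn, Cdh5, Pecam1 and Tek; summed level of the 6, 110.6 to 122 against 77.5 to 93.8 FPKM), and of 8 smooth muscle and pericyte markers, 2 fell (Acta2 and Pdgfrb; summed level 1071 to 1087 against 1024 to 1078 FPKM). The most abundant of the 8 had a mean of 847 FPKM, so that sum mostly follows 1 gene. By gene, 7 of the 8 had a log2 fold change under 0 and 1 above it (median -0.31, beside -0.01 for all genes). Among 7 keratinocyte markers none passed the test, but sample 6 stood apart with a summed level of 242 FPKM. The other libraries were at 5.50 to 16.1 FPKM (Krt1, Krt5, Krt14 and Lor were at 0 in some library). None of 6 fat cell markers passed the test, but all 6 had a log2 fold change above 0 (median 0.64). For 3 of these 6 the groups did not overlap after normalization, with Nogo-/- muscles higher. The 6 fat cell markers summed to 520 FPKM in sample 4 against 158 to 277 FPKM in the others. Their sum in sample 6, 207 FPKM, lay within the Nogo+/+ range of 158 to 230 FPKM. The part of these differences in cell content in the results on chaperones was not tested. In whole muscle, fewer cells of a type and less RNA per cell cannot be told apart.

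Chaperone transcripts moved little without Nogo. Of the 72 members, 1 rose (Dnajb9) and 3 fell (Hspb8, Hspa8 and Dnaja4), which is 5.56% of the members beside 4.64% of all genes (1.89% risen and 2.75% fallen). The test was limma on log2(FPKM + 1) after quantile normalization, with Benjamini-Hochberg adjustment over all 12353 genes and a threshold of 0.05, and each fold change given below is a log2 value on that scale, Nogo-/- minus Nogo+/+. With the values left without quantile normalization, 2 members rose (Dnajb9 and Hspa5) and none fell; over all genes the split then moved from 233 risen and 340 fallen to 302 risen and 234 fallen and the median of all genes from -0.01 to 0.03. The largest fold change of a member was 0.35 on the log2 scale. No member passed a fold of 1.3 (0.38 on the log2 scale), beside 7.42% of all genes, and in the ratio of mean FPKM 5 members passed it (Dnajb1, Dnajc13, Hspa2 and Hspbap1 upward and Hspa1b downward; 6.94%, beside 14.4% of all genes). For 57 members the whole 95% interval lay within that fold, as it did for 64.7% of all genes. The members' median fold change was -0.03 beside -0.01 for all genes, with 29 members above 0 and 43 below it (59.7%, beside 52.1% of all genes), and without quantile normalization the members' median turned to 0.02 beside 0.03 for all genes. After normalization the groups did not overlap for 26 members (36.1%, beside 26% of all genes), 8 of them higher in Nogo-/- muscles (beside 11%) and 18 lower (beside 14.9%). At an unadjusted p under 0.05 there were 22 members, 30.6% beside 20.5% of all genes, with 9 higher in Nogo-/- muscles (beside 8.91%) and 13 lower (beside 11.6%). In FPKM as deposited the groups did not overlap for 20 members (27.8%, beside 25.9% of all genes), 9 of them higher in Nogo-/- muscles (12.5%, beside 15.9%) and 11 lower (15.3%, beside 10%). The members were also more abundant than all genes (median of mean FPKM 19.1 beside 6.87). They varied less within groups (median pooled SD 0.086 beside 0.103 on the log2 scale). The part of level and spread in these shares was not tested.

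**Figure D1:**
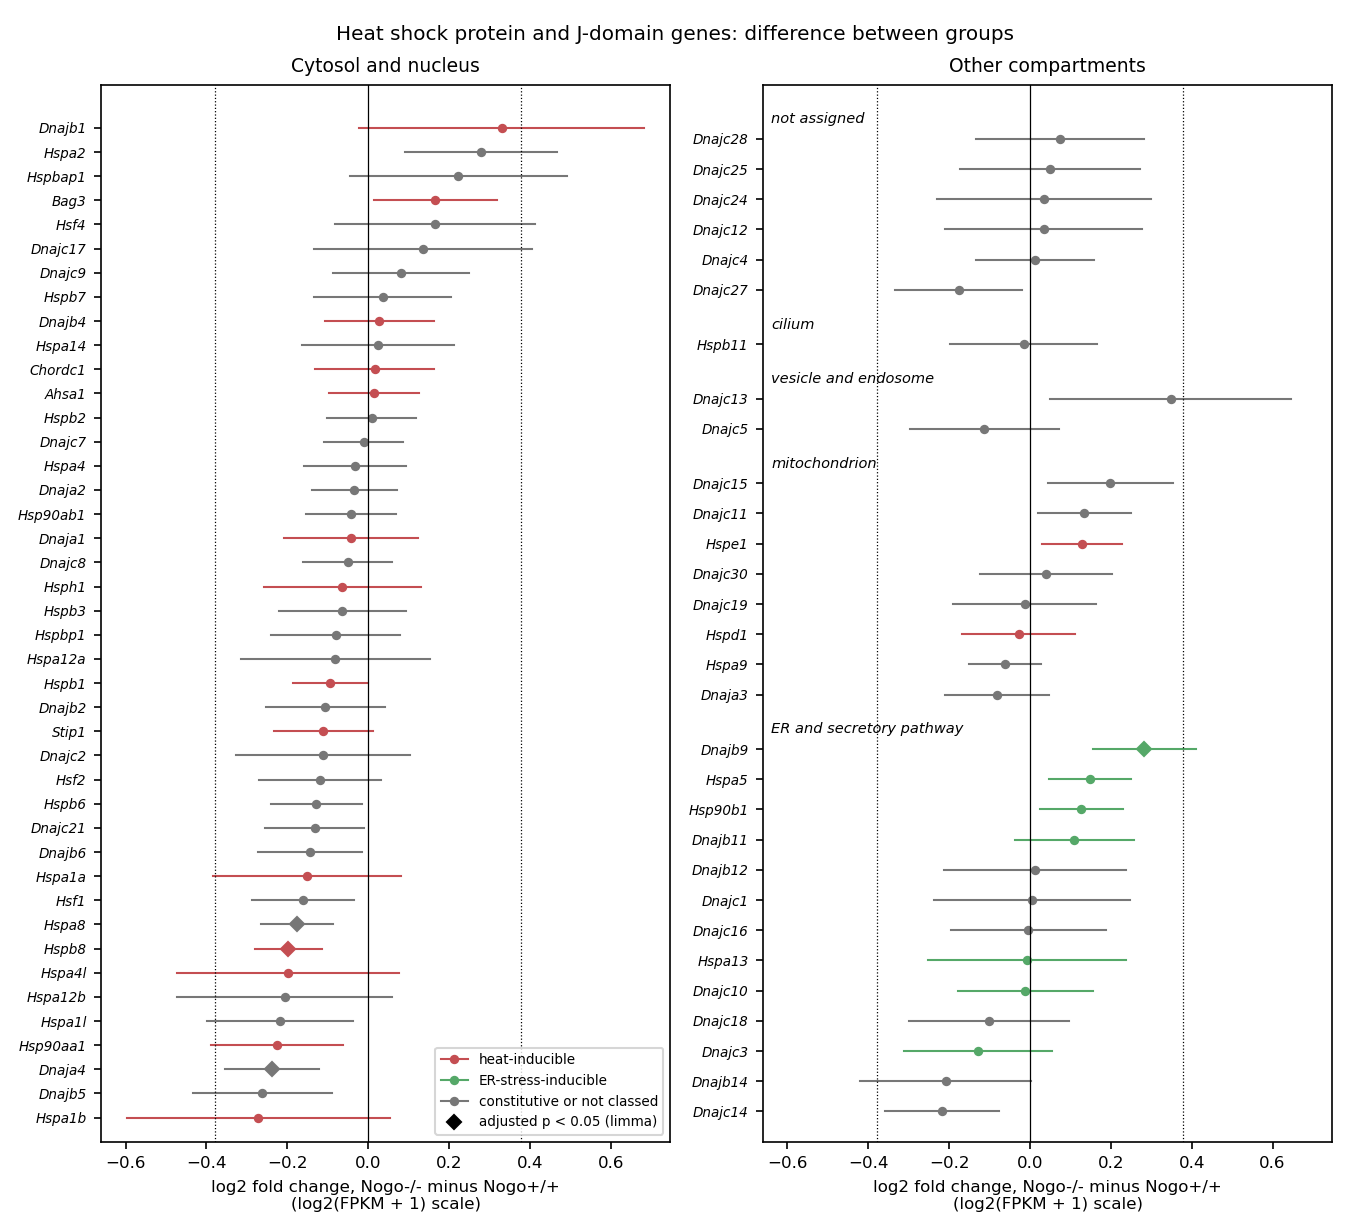
Log2 fold change of each of the 72 genes (x axis, Nogo-/- minus Nogo+/+, log2(FPKM + 1) scale) with its 95% interval from limma; the left panel holds the 42 genes of the cytosol and nucleus and the right panel the other compartments, colors mark the induction class, diamonds the 4 genes with an adjusted p under 0.05, and dotted lines a fold of 1.3. All 3 fallen genes are cytosolic, as are 42 of the 72 genes, the risen gene lies at the top of the ER group, and no estimate reaches a dotted line on this scale.

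By compartment, the 42 members of the cytosol and nucleus had 0 genes that rose and 3 that fell, 13 fold changes above 0 and 29 below it, and a median of -0.07. Of all genes, 1.89% rose, 2.75% fell and 52.1% had a fold change below 0, with a median of -0.01. Without quantile normalization none of these 3 falls was called, and the median of all members was 0.02, beside 0.03 for all genes. The medians by compartment and by induction class were taken after normalization only. Among the 13 members of the ER and secretory pathway 1 rose and none fell, and their median was -0.00. None of the 8 mitochondrial members passed the test (median 0.01), and neither did any of the 2 vesicle and endosome members, the single ciliary member or the 6 members without an assigned compartment. By induction class, 1 of 16 heat-inducible members fell (median -0.05), 1 of 7 ER-stress-inducible members rose (median 0.11), and 2 of the 49 constitutive or unclassed members fell (median -0.03). The differences between these classes were not tested.

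The small heat shock proteins held the highest levels of any class. Hspb6 was the most abundant member, and ranked 72 among all genes. It encodes a small heat shock protein of striated and smooth muscle. Its level was 589, 571 and 577 FPKM in samples 1, 2 and 3 and 516, 551 and 549 FPKM in samples 4, 5 and 6. The groups did not overlap, but the fold change of -0.13 missed the threshold (adjusted p = 0.195, limma), and the smooth muscle markers that fell are given above. Hspb8, whose protein works with Bag3 to clear damaged Z-disc proteins such as filamin C, was at 258, 263 and 267 FPKM in the Nogo+/+ muscles and at 251, 231 and 233 FPKM in the Nogo-/- muscles. Each Nogo-/- value lay below each Nogo+/+ value, with sample 4 close to sample 1. Hspb8 fell by 0.20 on the log2 scale (SE 0.0362, adjusted p = 0.022, limma), which is the smallest adjusted p of the members. The gene (ENSMUSG00000041548) lies at chr5:116408491-116422864 on the minus strand of GRCm38.p6. The call held when sample 1 or sample 4 was left out (lowest adjusted p = 0.0211) and was lost without sample 2, 3, 5 or 6 (0.112, 0.103, 0.0527 and 0.0514, limma), without quantile normalization (0.113) and without the mean-variance trend (0.127).

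Hspb1, the heat-inducible member known as HSP27 in humans and HSP25 in mice, was at 158, 159.8 and 170.1 FPKM in Nogo+/+ and 151, 161 and 155 FPKM in Nogo-/- muscles. The FPKM values overlapped, and the groups separated only after normalization (fold change -0.09, adjusted p = 0.237, limma). Hspb7, Hspb2 and Hspb3 are further small heat shock proteins enriched in heart and skeletal muscle. They had mean levels of 150 ± 15.8, 103 ± 3.71 and 39.3 ± 2.90 FPKM (SD, n = 3) in Nogo+/+ muscles and of 157 ± 4.83, 106 ± 5.24 and 38.91 ± 1.93 FPKM (SD, n = 3) in Nogo-/- muscles, and their fold changes lay between -0.06 and 0.04. Summed over the 6 genes, the level was 1311, 1285 and 1295 FPKM in the Nogo+/+ and 1231, 1238 and 1234 FPKM in the Nogo-/- muscles, so that the sums did not overlap. The sum mostly follows Hspb6 (mean 579 against 539 FPKM) and Hspb8 (263 against 239 FPKM), and the means of Hspb2 and Hspb7 were slightly higher in Nogo-/- muscles. The αB-crystallin gene Cryab, a small heat shock protein under another symbol and not a member, was at 663 ± 21.1 and 653 ± 5.34 FPKM (SD, n = 3; fold change -0.04, adjusted p = 0.704, limma). Of the class, 1 of 6 genes fell, none rose, and the median was -0.08.

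**Figure D2:**
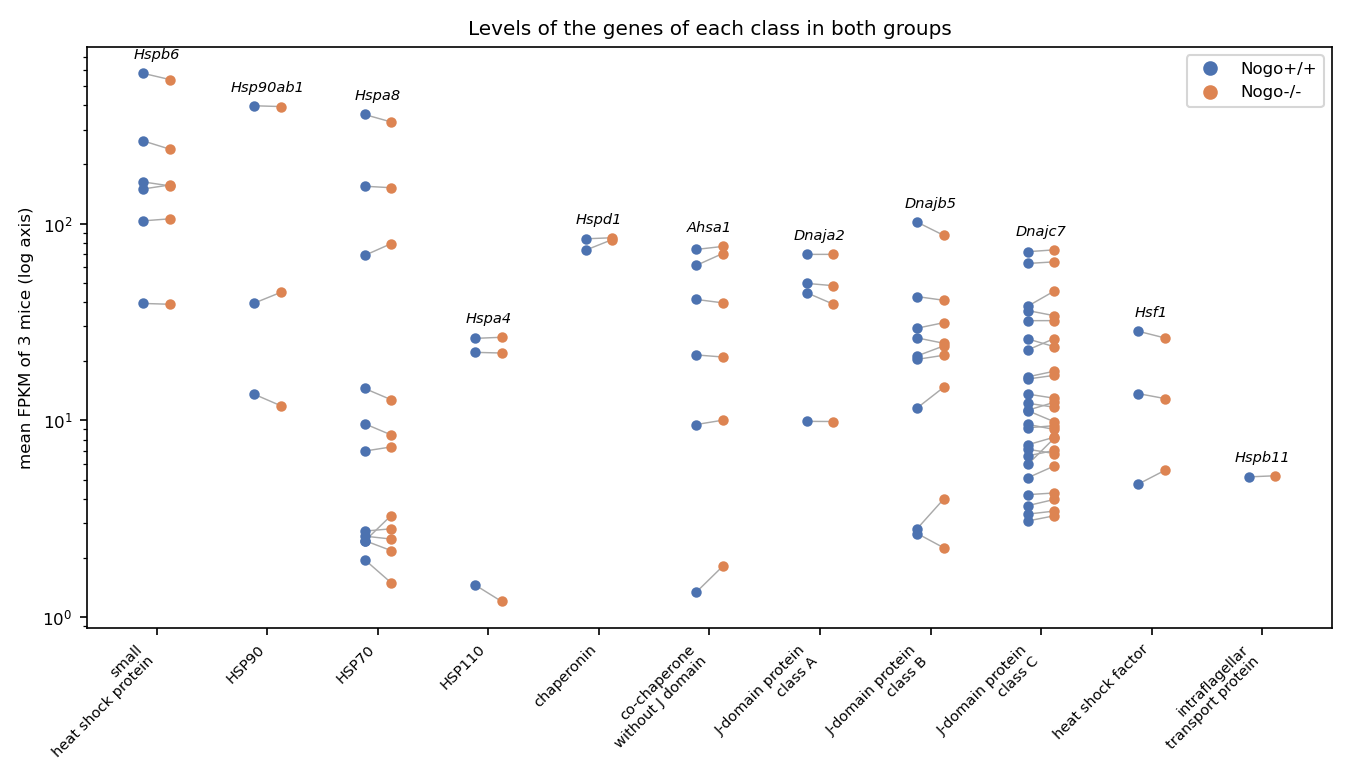
Mean FPKM of 3 mice on a log axis for each member, by class (x axis), with Nogo+/+ in blue and Nogo-/- in orange and a gray line joining the same gene; the most abundant gene of each class is named. Levels ran from just over 1 FPKM to 579 FPKM for Hspb6, and the lines between genotypes are close to level in comparison with the distances between genes.

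Among the 11 HSP70 genes, 1 fell and none rose (median -0.08). Hspa8, which encodes the constitutive cytosolic HSP70 (HSC70), was the most abundant of them. Its levels were 356, 366 and 352 FPKM in the Nogo+/+ muscles and 325, 317 and 344 FPKM in the Nogo-/- muscles. The groups did not overlap, and sample 6 came nearest to the Nogo+/+ range. Hspa8 fell by 0.18 (SE 0.039, adjusted p = 0.0431, limma), the largest adjusted p of the 4 calls. Sample 6 alone could be left out with the call kept (fold change -0.22, adjusted p = 0.0128); without any other library it lay between 0.0892 and 0.171, without quantile normalization at 0.129 and without the trend at 0.181 (limma). Hspa8 (ENSMUSG00000015656, chr9:40800984-40810087, plus strand) contains the small nucleolar RNA genes Snord14c, Snord14d and Snord14e on its own strand.

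The heat-inducible HSP70 genes Hspa1a and Hspa1b lie side by side on chromosome 17 and were barely transcribed. Hspa1a was at 2.29, 2.29 and 2.78 FPKM in Nogo+/+ muscles and at 2.04, 2.21 and 2.30 FPKM in Nogo-/- muscles, from 83.8 to 118.4 estimated fragments a library. Hspa1b was at 1.42, 2.03 and 2.44 FPKM against 1.41, 1.48 and 1.6 FPKM, from 54.7 to 98.5 estimated fragments. For both genes the groups overlapped, and the fold changes of -0.15 and -0.27 missed the threshold (adjusted p = 0.458 and 0.331, limma). With a library left out they ranged from -0.20 (without sample 6) to -0.08 (without sample 3) for Hspa1a and from -0.41 (without sample 1) to -0.15 (without sample 3) for Hspa1b, and none of these fits passed. Of the 100-base stretches of the Hspa1a transcripts 47.1% also occur in Hspa1b, so the division of fragments between the pair is uncertain. Hspa8 stood 147 ± 17.8 times above Hspa1a in Nogo+/+ and 151 ± 8.06 times in Nogo-/- muscles (SD, n = 3; exact permutation test, two-sided p = 0.9).

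Hspa2, an HSP70 best known from the testis, was among the 3 genes nearest the threshold. It was at 2.26, 2.43 and 2.6 FPKM in Nogo+/+ and 3.56, 3.23 and 3.07 FPKM in Nogo-/- muscles. The groups were apart, and the fold change of 0.28 gave an adjusted p of 0.104 (limma). Hspa12b, an HSP70-related gene of endothelial cells, had means of 9.63 ± 1.5 and 8.45 ± 1.3 FPKM (SD, n = 3; fold change -0.21, adjusted p = 0.369, limma) in a tissue where 5 of 6 endothelial markers fell, and the part of the endothelial markers in this value was not tested. The remaining cytosolic HSP70 genes, Hspa1l, Hspa14 and Hspa12a, also missed the threshold, with fold changes of -0.22, 0.02 and -0.08. The HSP110 genes, whose products act as exchange factors of HSP70, did not pass either. Hspa4 was at 26.0, 26.8 and 25.5 FPKM against 26.0, 26.9 and 26.4 FPKM (fold change -0.03). Hsph1 was at 21, 22.4 and 23.2 FPKM against 22.6, 19.7 and 23.7 FPKM (fold change -0.06), and Hspa4l at 1.4, 1.39 and 1.58 FPKM against 1.46, 1.25 and 0.896 FPKM (fold change -0.20), with both genes overlapping between genotypes in FPKM. Sample 6 held the lowest Hspa4l value, the single member value under 1 FPKM in any library.

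HSP90 was carried mainly by Hsp90ab1, the constitutive cytosolic form. It was at 395, 395 and 400.2 FPKM in Nogo+/+ muscles and at 378, 397 and 404 FPKM in Nogo-/- muscles, overlapping throughout (fold change -0.04, adjusted p = 0.682, limma). Hsp90aa1, the heat-inducible form, was far lower, at 13.6, 13.8 and 13.4 FPKM in Nogo+/+ and 13.3, 11.6 and 10.9 FPKM in Nogo-/- muscles. Its groups did not overlap, with sample 4 just under the Nogo+/+ range, and its fold change of -0.23 missed the threshold (adjusted p = 0.126, limma). The ratio of Hsp90ab1 to Hsp90aa1 was 29.2 ± 0.656 in Nogo+/+ and 33.4 ± 4.46 in Nogo-/- muscles (SD, n = 3; exact permutation test, two-sided p = 0.4). The co-chaperone Ahsa1, which stimulates the HSP90 ATPase, was at 72, 73.5 and 76.1 FPKM against 73.0, 80.6 and 75.9 FPKM, and Stip1, which links HSP70 to HSP90, at 41.9, 40.7 and 40.9 FPKM against 39.3, 38.5 and 40.9 FPKM. Chordc1, another HSP90 co-chaperone, was at 9.51, 9.72 and 9.37 FPKM against 9.65, 10.6 and 9.81 FPKM. The genotypes overlapped in FPKM for all 3 of these genes, with fold changes of 0.01, -0.11 and 0.02.

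Bag3, the exchange factor that directs HSP70 and Hspb8 clients to autophagy, was at 65.7, 56.2 and 62.0 FPKM in Nogo+/+ muscles and at 65.4, 74.5 and 71.4 FPKM in Nogo-/- muscles. Sample 4 lay within the Nogo+/+ range and samples 5 and 6 above it, and the fold change of 0.17 missed the threshold (adjusted p = 0.206, limma). As Hspb8 fell and Bag3 did not, the ratio of their FPKM values was taken after these values were seen. It was 3.93, 4.69 and 4.30 in the Nogo+/+ and 3.84, 3.10 and 3.27 in the Nogo-/- muscles. The ratios did not overlap, with p = 0.1 by the exact two-sided permutation test, which cannot go lower with groups of 3 (0.25 after adjustment over the 5 ratios examined). Of the other co-chaperones without a J domain, Hspbp1 was at 21.5 ± 0.883 and 21 ± 1.17 FPKM and Hspbap1 at 1.34 ± 0.224 and 1.82 ± 0.310 FPKM (SD, n = 3), and neither passed the test.

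The 37 J-domain genes had 1 that rose and 1 that fell, with a median of -0.01. In class A, whose products share the domain order of bacterial DnaJ, Dnaja2 was the most abundant, at 68.9, 69.2 and 71.1 FPKM in Nogo+/+ and 66.1, 72.9 and 70.3 FPKM in Nogo-/- muscles (fold change -0.03). Dnaja1, the heat-inducible gene of this class, was at 9.36, 9.57 and 10.7 FPKM against 10.3, 9.38 and 9.98 FPKM (fold change -0.04). Both genes overlapped between the genotypes. Dnaja4, a cytosolic partner of HSP70, was at 43.0, 44.0 and 46.6 FPKM in Nogo+/+ muscles and at 39.3, 40.6 and 37.1 FPKM in Nogo-/- muscles. All Nogo-/- values lay below the lowest Nogo+/+ value, and Dnaja4 fell by 0.24 (SE 0.0508, adjusted p = 0.0384, limma). With any library left out the fold change stayed between -0.27 and -0.21 but the call was lost (adjusted p = 0.0578 to 0.152 without sample 1, 2, 3, 4, 5 or 6, limma), and it was also lost without quantile normalization (0.11) and without the trend (0.0855). Dnaja4 (ENSMUSG00000032285) lies at chr9:54698873-54716315 on the plus strand, where it overlaps Wdr61 on the opposite strand and Mir5710 on its own.

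In class B, Dnajb5 was the most abundant gene, at 104.8, 99.6 and 100.4 FPKM in Nogo+/+ and 88.0, 78.4 and 94.9 FPKM in Nogo-/- muscles. Its groups did not overlap, but the Nogo-/- values spread widely, and the fold change of -0.26 missed the threshold (adjusted p = 0.0971, limma). Without sample 6, the Nogo-/- library with the highest Dnajb5 value and with the keratinocyte transcripts given above, the fold change was -0.35 and passed (adjusted p = 0.0197, limma). Without sample 5 it was -0.18 (adjusted p = 0.162, limma), and without sample 1, 2, 3 or 4 it also missed the threshold (0.19 to 0.25). Dnajb1, the classical heat-inducible HSP40, was at 2.51, 2.79 and 3.17 FPKM in Nogo+/+ and 4.35, 2.87 and 4.75 FPKM in Nogo-/- muscles, so that samples 4 and 6 lay above the Nogo+/+ range and sample 5 within it (fold change 0.33, SE 0.154, adjusted p = 0.275, limma). The fold change of Dnajb1 was 0.51 without sample 5 (adjusted p = 0.0622, limma) and 0.20 without sample 6 (0.521). Dnajb4, also heat-inducible, was at 30.4, 28.3 and 29.7 FPKM against 32.2, 33.3 and 28.6 FPKM, and its groups overlapped (fold change 0.03). Dnajb6, mutated in a limb-girdle muscular dystrophy, and Dnajb2 had means of 26.2 ± 1.10 and 42.6 ± 3.66 FPKM in Nogo+/+ and 24.7 ± 1.31 and 40.8 ± 0.866 FPKM in Nogo-/- muscles (SD, n = 3), and fold changes of -0.14 and -0.11 that missed the threshold.

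None of the 24 class C genes passed the test, with 12 fold changes above 0 and 12 below it. Dnajc7, a co-chaperone of both HSP70 and HSP90 and the most abundant of this class, was at 72.3, 72.5 and 71.1 FPKM in Nogo+/+ and 72.2, 76.2 and 72.2 FPKM in Nogo-/- muscles (fold change -0.01). Dnajc13, which acts on endosomes, had the largest fold change of all members that missed the threshold. It was at 5.78, 5.11 and 7.03 FPKM against 8.01, 7.01 and 9.38 FPKM. The value of sample 5 was just below that of sample 3, so the groups overlapped narrowly, and the fold change of 0.35 (SE 0.130) gave an adjusted p of 0.181 (limma). Dnajc14, an ER membrane J-domain protein linked to receptor export, came nearest to the threshold from outside. It was at 11.4, 11.1 and 11 FPKM in Nogo+/+ and 9.47, 10.3 and 9.79 FPKM in Nogo-/- muscles, with no overlap (fold change -0.22, adjusted p = 0.0957, limma). Dnajc5, the cysteine string protein of secretory vesicles, had means of 13.6 ± 0.520 and 13.0 ± 1.47 FPKM (SD, n = 3), and its groups overlapped.

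**Figure D3:**
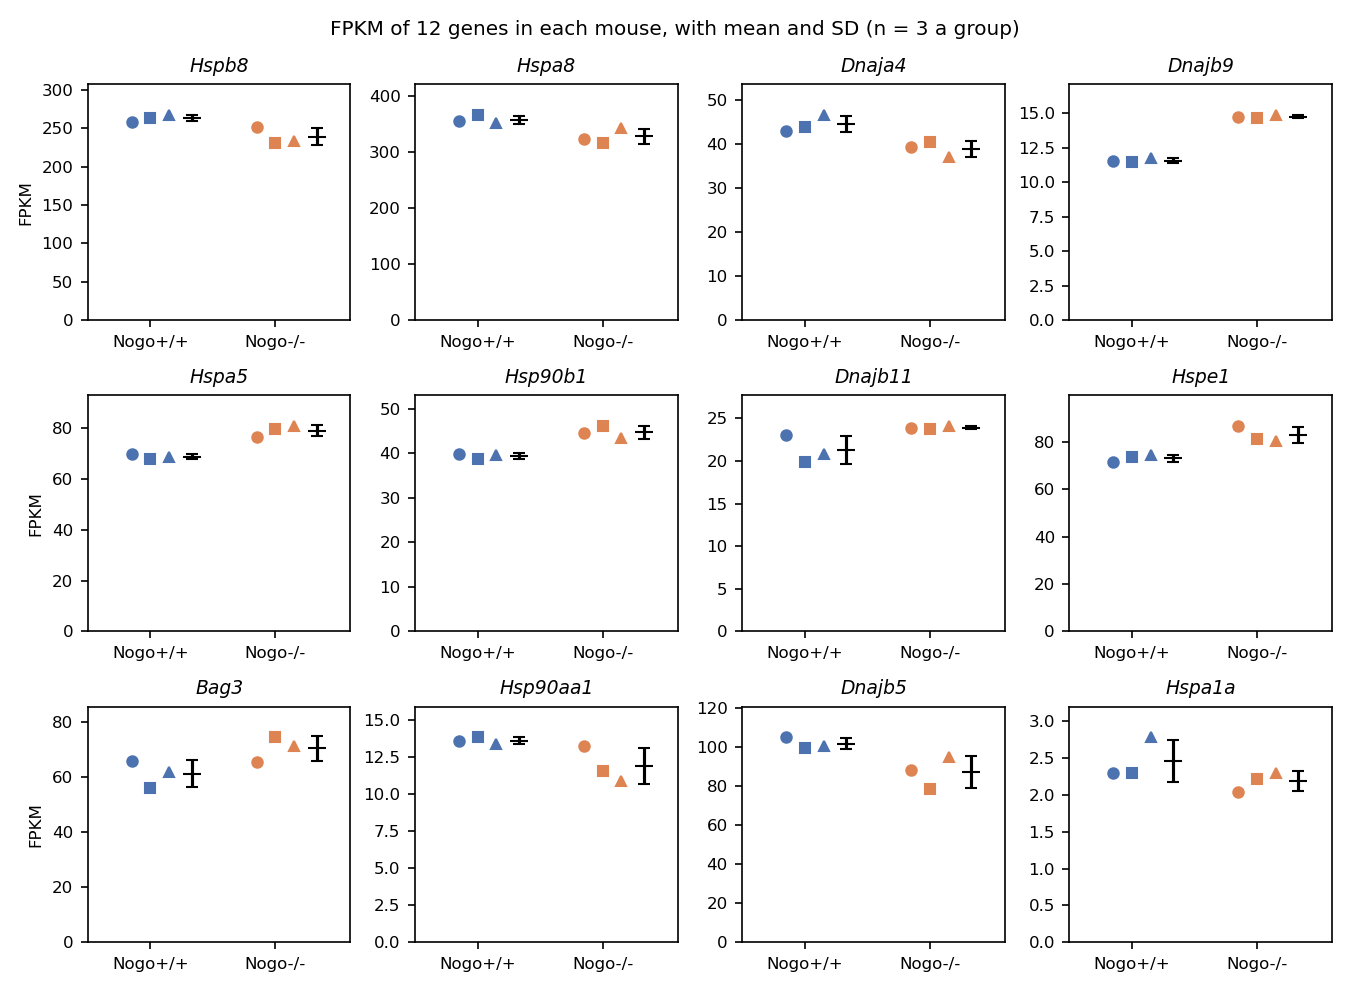
FPKM of 12 genes in each mouse (y axes from 0; Nogo+/+ in blue, Nogo-/- in orange; circle, square and triangle are samples 1, 2 and 3 or samples 4, 5 and 6), with mean and SD in black (n = 3 a group). Dnajb9, Hspa5, Hsp90b1, Dnajb11 and Hspe1 are higher in each Nogo-/- muscle, Hspb8, Hspa8, Dnaja4, Dnajb5 and Hsp90aa1 are lower, and Bag3 and Hspa1a overlap.

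The ER members included the 1 gene that rose. Dnajb9 (ERdj4) is a J-domain partner of the ER HSP70 BiP and holds back the stress sensor IRE1. It was at 11.5, 11.5 and 11.8 FPKM in the Nogo+/+ muscles and at 14.7, 14.7 and 14.9 FPKM in the Nogo-/- muscles. The spread within each genotype was small beside the gap between them, and the mean FPKM was 27.4% higher in Nogo-/- muscles. Dnajb9 rose by 0.28 on the log2 scale (SE 0.0559, adjusted p = 0.029, limma), and this call was also made without quantile normalization and without the trend. With any library left out the fold change was 0.26 to 0.30 and the call was lost (adjusted p = 0.0573 to 0.113 without sample 1, 2, 3, 4, 5 or 6, limma). Dnajb9 (ENSMUSG00000014905) lies at chr12:44205559-44210326 on the minus strand.

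Hspa5, which encodes BiP, was at 69.9, 67.8 and 68.8 FPKM in Nogo+/+ and 76.4, 79.8 and 80.8 FPKM in Nogo-/- muscles. The groups did not overlap, and the fold change of 0.15 missed the threshold (SE 0.0439, adjusted p = 0.105, limma), whereas without quantile normalization it was 0.20 and passed (adjusted p = 0.0471). Hsp90b1, the HSP90 of the ER lumen (GRP94), was at 39.9, 38.6 and 39.6 FPKM against 44.6, 46.1 and 43.3 FPKM, again with no overlap (fold change 0.13, adjusted p = 0.164, limma). Dnajb11 (ERdj3), a soluble BiP partner, was at 23.1, 19.9 and 20.9 FPKM against 23.9, 23.8 and 24.1 FPKM, apart in FPKM but overlapping after normalization (fold change 0.11, adjusted p = 0.39, limma). For these 4 genes each Nogo-/- library held more FPKM than any Nogo+/+ library, as it did for 15.9% of all genes.

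The other 3 ER-stress-inducible members overlapped between the genotypes. Dnajc3 (p58IPK), which restrains the kinase PERK, was at 9.65, 9.94 and 9.06 FPKM in Nogo+/+ and 9.23, 9.90 and 7.86 FPKM in Nogo-/- muscles (fold change -0.13). Dnajc10 (ERdj5), a disulfide reductase, was at 9.03, 9.64 and 8.85 FPKM against 10.3, 9.48 and 8.48 FPKM (fold change -0.01), and Hspa13 at 2.63, 3.14 and 2.45 FPKM against 2.58, 2.84 and 3.03 FPKM (fold change -0.01). Summed over the 7 genes, the level was 165.8, 160.5 and 161.4 FPKM in the Nogo+/+ and 181.7, 186.5 and 182.4 FPKM in the Nogo-/- muscles. That sum mostly follows Hspa5 (mean 68.8 against 79.0 FPKM) and Hsp90b1 (39.4 against 44.7 FPKM), which both missed the threshold. Of the 7 fold changes, 4 were above 0 and 3 below it. The 16 heat-inducible members summed to 838, 846 and 872 FPKM in the Nogo+/+ and 842, 849 and 835 FPKM in the Nogo-/- muscles, so that the sums overlapped. These 16 include the mitochondrial genes Hspd1 and Hspe1. The other 14 summed to 688, 686 and 712 FPKM in Nogo+/+ and 676, 678 and 669 FPKM in Nogo-/- muscles, without overlap. Hspb8 is 1 of these 14 (mean 263 against 239 FPKM), and of their fold changes 5 were above 0 and 9 below it. The ratio of Dnajb9 to Hspa5 was 0.168 ± 0.00303 in Nogo+/+ and 0.187 ± 0.00498 in Nogo-/- muscles (SD, n = 3; exact permutation test, two-sided p = 0.1, the smallest p possible, and 0.25 after adjustment over 5 ratios). Of the 6 ER members not classed as inducible, Dnajb12, Dnajc1, Dnajc16, Dnajc18, Dnajb14 and Dnajc14, the fold changes lay between -0.22 and 0.01 and none passed.

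**Figure D4:**
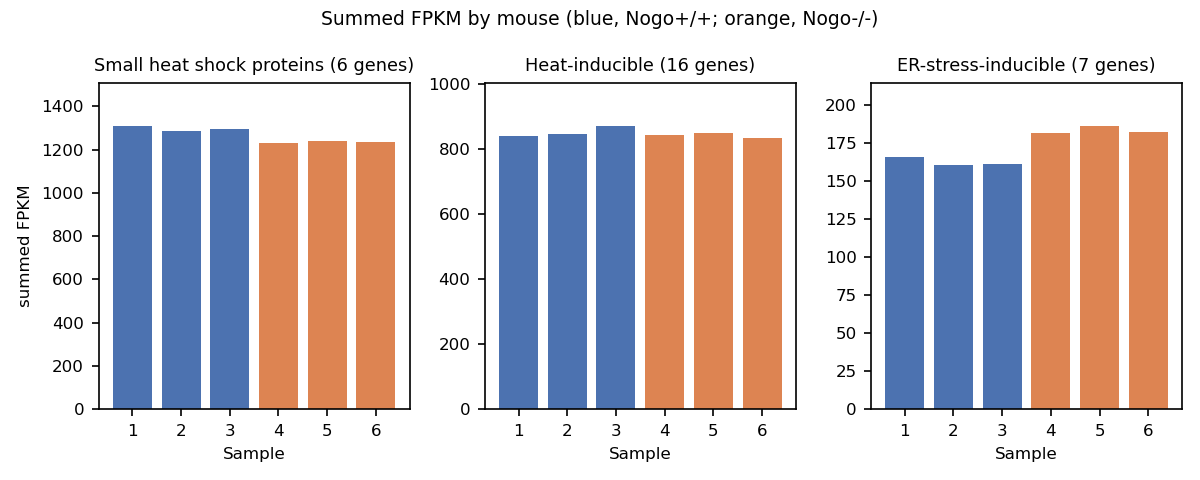
Summed FPKM in each library (samples 1, 2 and 3, Nogo+/+, blue; samples 4, 5 and 6, Nogo-/-, orange) for the 6 small heat shock protein genes, the 16 heat-inducible genes and the 7 ER-stress-inducible genes; y axes start at 0. The first sum is lower in each Nogo-/- muscle (1231 to 1238 against 1285 to 1311 FPKM). The second overlaps, but its 14 genes of the cytosol and nucleus, not drawn apart, sum to 669 to 678 against 686 to 712 FPKM. The ER-stress-inducible sum is higher in each Nogo-/- muscle (181.7 to 186.5 against 160.5 to 165.8 FPKM) and mostly follows Hspa5 and Hsp90b1.

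Among the mitochondrial members, Hspd1 and Hspe1 encode the chaperonin HSP60 and its lid HSP10, which fold imported matrix proteins in a joint complex. The genes lie head to head on chromosome 1, with start sites 216 bases apart. Hspd1 was at 78.9, 86.8 and 85.3 FPKM in Nogo+/+ and 79.3, 89.7 and 85.2 FPKM in Nogo-/- muscles, fully overlapping (fold change -0.03, adjusted p = 0.843, limma). Hspe1 was at 71.6, 73.8 and 74.4 FPKM against 86.7, 81.3 and 80.6 FPKM, with each Nogo-/- value above the Nogo+/+ range, but its fold change of 0.13 missed the threshold (adjusted p = 0.149, limma). The ratio of Hspe1 to Hspd1 was 0.876 ± 0.0291 in Nogo+/+ and 0.982 ± 0.0986 in Nogo-/- muscles (SD, n = 3; exact permutation test, two-sided p = 0.2). Dnajc15, which curbs complex I activity, and Dnajc11, a protein of the cristae junction machinery, had non-overlapping means of 38.1 ± 2.09 against 45.4 ± 2.86 FPKM and 22.8 ± 0.530 against 26.1 ± 0.181 FPKM (SD, n = 3), and their fold changes of 0.20 and 0.13 missed the threshold (adjusted p = 0.15 and 0.184, limma). The mitochondrial HSP70 Hspa9 and its J-domain partner Dnaja3 had fold changes of -0.06 and -0.08, and Dnajc19 and Dnajc30 of -0.01 and 0.04.

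The heat shock factors did not pass the test. Hsf1, the main activator of the heat shock response, was at 28.0, 29.2 and 27.9 FPKM in Nogo+/+ and 26.6, 27.1 and 25.0 FPKM in Nogo-/- muscles. The groups did not overlap, and the fold change was -0.16 (adjusted p = 0.151, limma). Hsf2 and Hsf4 had means of 13.7 ± 0.430 and 4.75 ± 0.715 FPKM in Nogo+/+ and 12.9 ± 0.835 and 5.58 ± 0.409 FPKM in Nogo-/- muscles (SD, n = 3), with overlap. Hspb11, which despite its symbol encodes an intraflagellar transport protein, was at 5.13, 5.65 and 4.72 FPKM against 5.33, 5.12 and 5.26 FPKM.

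Promoter sequence was set beside these values because heat shock factor 1 and the unfolded protein response are known to act through short promoter elements. RefSeq windows on GRCm38.p6, from 250 bases before to 50 bases after a start site, were found for 58 of the 72 members and for 27025 genes. The heat shock element is built of inverted GAA units. With 3 units, GAA, TTC and GAA or TTC, GAA and TTC, each separated by 2 free bases, it was found in 0.662% of all genes and in 5 members (Chordc1, Dnajb6, Hspd1, Hspe1 and Hsph1), 4 of them among the 15 heat-inducible members with a window. With 2 units (GAANNTTC or TTCNNGAA, both contained in the longer form) it was found in 17% of all genes and in 17 members, 11 of them heat-inducible. The ER stress response element (CCAAT, 9 free bases and CCACG, or the same read from the other strand) was found in 0.137% of all genes and in 3 of the 6 ER-stress-inducible members with a window, and its second form (ATTGG, 1 free base and CCACG, on either strand) in 0.0444% of all genes and in Dnajb11. A match of letters is a description, and no binding was measured here.

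The heat shock elements shown are the longest matches and those of the fallen genes Hspb8 and Dnaja4 and of the pair Hspa1a and Hspa1b, each 5′ to 3′ on the strand of its gene with the matched units in capitals.
Hspe1, chr1:55088053-55088082, plus strand, also in the Hspd1 window: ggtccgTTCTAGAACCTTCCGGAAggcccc
Dnajb6, chr5:29735844-29735872, plus strand: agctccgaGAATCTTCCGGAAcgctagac
Chordc1, chr9:18292260-18292288, plus strand: ccgGAACGTTCGGGAAAATTCCTGAAgca
Hsph1, chr5:149636287-149636308, minus strand: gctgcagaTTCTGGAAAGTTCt
Dnaja4, chr9:54699458-54699487, plus strand: ggaacctccgcGAACGTTCtgggcctatgt
Hspb8, chr5:116422844-116422873, minus strand: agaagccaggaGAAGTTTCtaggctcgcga
Hspa1a, chr17:34972233-34972280, minus strand: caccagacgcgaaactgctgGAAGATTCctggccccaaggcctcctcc
Hspa1b, chr17:34959315-34959362, minus strand: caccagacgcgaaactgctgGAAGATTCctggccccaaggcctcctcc
The Hspe1 run joins overlapping 3-unit matches and starts 89 bases before the Hspe1 start site. Hspe1 and Hspd1 share it, and their fold changes were 0.13 and -0.03. The Chordc1 run spans the start site and holds 3 overlapping matches, beside a fold change of 0.02. Hspb8 and Dnaja4 held 2-unit matches only, and 17% of all genes held a 2-unit match, those with 3 units included. For Hspa8, the other fallen gene, no match of either form was found, and not every member had a window. The Hspa1a and Hspa1b stretches are identical in letters, and their whole windows are alike at 296 of 300 bases. In the GENCODE M21 annotation the Hspa1a and Hspa1b stretches lie outside exons, before the genes' starts, and the other stretches overlap an exon.

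The ER elements shown are those of the ER-stress-inducible members that hold one, with the matched bases in capitals. They belong to 3 of the 4 ER-stress-inducible genes whose FPKM groups did not overlap and to Dnajc3, whose groups did. After normalization 3 ER-stress-inducible genes were apart (Dnajb9, Hspa5 and Hsp90b1), and Dnajb11 overlapped. A link between element and fold change was not tested.
Hspa5, chr2:34772020-34772048, plus strand: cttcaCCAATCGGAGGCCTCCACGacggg
Hsp90b1, chr10:86705513-86705676, minus strand: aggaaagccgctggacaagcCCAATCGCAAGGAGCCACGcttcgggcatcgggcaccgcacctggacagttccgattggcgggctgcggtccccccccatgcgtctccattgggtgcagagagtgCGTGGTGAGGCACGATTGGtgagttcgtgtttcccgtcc
Dnajc3, chr14:118937807-118937865, plus strand: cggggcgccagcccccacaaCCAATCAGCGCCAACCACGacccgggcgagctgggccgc
Dnajb11, chr16:22857843-22857871, plus strand: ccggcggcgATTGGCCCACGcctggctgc
The Hspa5 and Dnajb11 stretches overlap an annotated exon and the other stretches lie outside exons. The Hspa5 element starts 65 bases before the start site. Hsp90b1 held a match on each strand, the farther one starting 212 bases before the start site. The Dnajc3 element starts 105 bases before its start site, and the Dnajb11 match lies 8 bases into the transcript. For Dnajb9, the gene of this group that rose, no match to either form of the ER element or of the heat shock element was found. Windows were found for 6 of the 7 ER-stress-inducible members, so a missing match can also reflect a missing window.

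Genes that work with the members but carry other names were read from lists of textbook pathways. Of 23 genes of ER folding and the unfolded protein response, 1 rose and none fell (median -0.01). That gene was Herpud1, which helps to clear misfolded ER proteins. It was at 64.5, 60.0 and 65.4 FPKM in Nogo+/+ and 81.9, 91.4 and 75.9 FPKM in Nogo-/- muscles, without overlap, and it rose by 0.35 (adjusted p = 0.0227, limma). That call was lost without sample 1, 2, 3 or 4, kept without sample 5 or 6 (adjusted p = 0.0199 to 0.108 over these 6 fits), and was lost without the trend (0.0673). Of 10 HSP70 exchange factors and BAG proteins, 1 fell. Bag2, an inhibitor of the ubiquitin ligase CHIP, was at 14.5, 15.0 and 15.4 FPKM against 11.7, 11.7 and 12.5 FPKM and fell by 0.35 (adjusted p = 0.0245, limma), a call lost without sample 1, 2, 3, 4 or 5 and kept without sample 6 (adjusted p = 0.0257 to 0.112 over these 6 fits).

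No gene passed the test among 20 HSP90 co-chaperones, 14 genes of the TRiC chaperonin and prefoldin, 14 genes of mitochondrial folding and quality control, 4 J-domain proteins under other symbols and 2 cold-inducible RNA-binding proteins. The smallest p-values of these lists belonged to Nudc and Cdc37l1 (fold changes 0.14 and -0.15), Pfdn5 and Cct3 (0.15 and 0.14), Afg3l2 and Grpel1 (-0.11 and -0.09), Sec63 and Hscb (0.24 and 0.15), and Rbm3 and Cirbp (0.16 and -0.00). Sec63, a J-domain protein of the ER translocon, was at 10.2, 11.1 and 10.4 FPKM in Nogo+/+ and 12.3, 13.4 and 13.4 FPKM in Nogo-/- muscles, with no overlap (adjusted p = 0.121, limma).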

How the data were processed

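The gastrocnemius muscles of 3 mice of each genotype gave 6 libraries of poly(A) RNA. According to the submitters' processing notes and the study's methods, the authors ran CASAVA 1.8.2 and cutadapt 1.4.2 for adapters, STAR 2.6.1 for alignment to GRCm38.p6, and estimated FPKM per gene with Cufflinks 2.2.1. The deposited FPKM values were used. The 6 further columns of per-sample values, the authors' normalized log2 values, were not used. The study's own labelling of the columns assigned samples 1, 2 and 3 to Nogo+/+ and 4, 5 and 6 to Nogo-/-, but no column names a replicate number. FPKM do not state depth. In genes with a single transcript, 94.7 to 96.2% of the low values lay within 0.1 of a whole fragment number (20% by chance), which gave 13500000 to 14400000 fragments a library. Cufflinks estimates the share of fragments that overlapping or near-identical genes receive.

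FPKM were quantile normalized, log2(FPKM + 1) was taken, and genotypes were compared with limma 3.58.1 (R 4.3.3; empirical Bayes with trend, no covariates) in all 6 libraries, with Benjamini-Hochberg adjustment over all 12353 genes and a threshold of 0.05. The fit was tested on simulated data with known changes. The study's permutation statistic was replaced by limma. Of the gene identifiers, 12342 matched GENCODE M21. Compartments, induction classes and pathway lists were assigned from textbook knowledge. The members and lists were chosen with earlier results of these data known. Values in each library are given for members past the threshold, heat-inducible and ER-stress-inducible members, the most abundant of each class, the 3 nearest to the threshold and the 3 largest fold changes that missed it; other genes are given by group means or ranges, and for pathway lists the genes past the threshold or else the 2 with the smallest p. The result of 1 further list is not reported here. Ratios were compared by exact two-sided permutation tests (SciPy 1.17.1), with a smallest p of 0.1. As alternatives the pseudocount was set to 0.1, genes with a mean under 1 FPKM were dropped, quantile normalization or the trend was left out, libraries were weighted, and each library was left out. Promoter windows came from RefSeq (GRCm38.p6). The limma p-values test the difference between genotypes against the spread between these mice. Each gene's variance was drawn toward a trend over all genes.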

Additional observations from a re-analysis of the deposited data

How the results depend on the processing

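A pseudocount of 0.1, dropping genes with a mean under 1 FPKM, and sample weights each gave the same 4 calls among the members. Without quantile normalization 2 members changed (2 rose, 0 fell), and without the trend 1 changed (1 rose, 0 fell). With a library left out, 0 to 2 members changed (0 rose, 0 to 2 fell), and 188 to 434 genes of all changed (83 to 196 rose, 105 to 238 fell), so each leave-one-out fit made fewer calls on fewer samples. No member called in all 6 libraries kept its call in each of these fits. Fold changes near 0 turned sign. Without quantile normalization this held for Dnajc7 (0.03), Hspa4 (0.02), Hspd1 (0.02), Dnajc10 (0.03), Hspa13 (0.03) and Hspb11 (0.02), where that setting also moved the median of all genes from -0.01 to 0.03. With a library left out, the ranges crossed 0 for Ahsa1 (-0.01 to 0.05), Dnajc7 (-0.03 to 0.0079), Hspa4 (-0.05 to 0.00099), Hspd1 (-0.07 to 0.03), Dnajc10 (-0.06 to 0.03), Hspa13 (-0.07 to 0.07), Hspb11 (-0.07 to 0.05), Dnaja1 (-0.08 to 0.0058), Hsp90ab1 (-0.08 to 0.02), Dnaja2 (-0.06 to 0.0002), Chordc1 (-0.02 to 0.05), Dnajb4 (-0.0072 to 0.08) and Hsph1 (-0.13 to 0.02). The cause of these changes was not tested. No paired analysis was possible because the columns carry no replicate numbers. Hspa1a and Hspa1b rest on 54.7 to 118.4 estimated fragments a library, and their 95% intervals were -0.38 to 0.08 and -0.60 to 0.05.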
